A study of Mus musculus with 4 samples.

Results

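The BCL2 family genes of programmed cell death were followed in the livers of alcohol-fed mice with and without Brg1 in hepatocytes. The 10 genes Bik, Bid, Bax, Bak1, Bcl2l1, Mcl1, Bcl2l11, Bbc3, Pmaip1 and Bmf were taken by symbol from a table of 22103 entries, and all 10 were found. Bik was chosen by its FPKM in these same samples, which was lower in the KO livers, so its genotype difference is given below as a description with no test. Of the 10 genes, 9 passed the filter on low values, a mean of at least 0.1 FPKM over the 4 livers, which 12346 genes passed in all.

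BCL2 family proteins meet at the outer mitochondrial membrane and decide whether a cell releases cytochrome c and activates caspases. Anti-apoptotic members hold the pore-forming effectors Bax and Bak1 in check, and the BH3-only members, each of which responds to its own kinds of stress, bind the anti-apoptotic members or the effectors directly. Hepatocytes depend on Bcl2l1 and Mcl1 to survive, and apoptosis of hepatocytes is a known feature of alcoholic liver injury.

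The livers came from 2 WT mice and 2 Brg1LKO mice (labelled KO), each sequenced as its own RNA library. The Brg1LKO mice carry floxed Smarca4, the gene of the chromatin remodeler Brg1, and Cre under the albumin promoter, so the deletion is directed at hepatocytes while the other cells of the liver keep the gene. All 4 mice were treated alike with alcohol, for 15 days by the sample labels, and the study's methods describe male mice of 8 weeks and chronic feeding of a liquid diet with ethanol, ended by 1 binge dose given by gavage. Whole liver was used, so fewer cells of a type and less RNA per cell cannot be told apart.

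Each liver gave between 72599105 and 80935546 reads as estimated from the steps between low FPKM values. FPKM, the number of fragments scaled by transcript length and library size, allows levels to be compared between genes of different length. Smarca4 measured 1.78 and 1.95 FPKM in the WT livers against 0.608 and 0.579 FPKM in the KO livers, 31.8% of the WT mean, with a log2 difference of -1.50 (SE 0.34, limma, adjusted p = 1 by Benjamini-Hochberg, unadjusted p = 0.000548). Alb was the most abundant hepatocyte marker, and the summed FPKM of 8 hepatocyte markers ranged from 22590 to 27600 without separating the groups. The threshold used throughout was an unadjusted p under 0.05 in limma together with a change of more than 2-fold. It was passed by 121 of the 12346 genes tested (0.98%), of which 54 were higher in the KO livers (0.437%) and 67 were lower (0.543%), and no gene had an adjusted p under 0.05 (247 had an unadjusted p under 0.05). With 1 liver left out a group holds a single liver and shows no spread of its own. For single genes only log2 differences are therefore given from those fits, and no conclusion is drawn from their counts of genes past the threshold. An exact permutation test of 2 against 2 livers cannot go below a two-sided p of 0.333, and limma reaches smaller p-values by borrowing the spread of other genes.

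None of the 8 tested members other than Bik passed this threshold, against 0.98% of all genes, and none had an unadjusted p under 0.05 in limma. The log2 differences of these 8 genes lay between -0.55 and -0.01, all below 0 (Bid and Bcl2l1 turned to just above 0 under median-ratio rescaling), with a median of -0.22 against -0.02 over all genes tested. The shared sign depended on the filter. Without the filter on low values Pmaip1 was fitted too, at 0.29, and the median of the 9 members other than Bik was -0.12. The shared sign also did not hold when any 1 liver was left out, since at least 1 of the 8 genes then lay above 0. The median of the 8 was 0.11 without KO replicate 2, -0.07 without WT replicate 2, -0.27 without WT replicate 1 and -0.55 without KO replicate 1. For Bid, Bak1, Bcl2l1 and Mcl1 the 95% interval of the difference lay within 2-fold in either direction. For the other 4 genes the interval reached past a 2-fold decrease, so these livers do not limit the difference to under 2-fold.

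**Figure D1:**
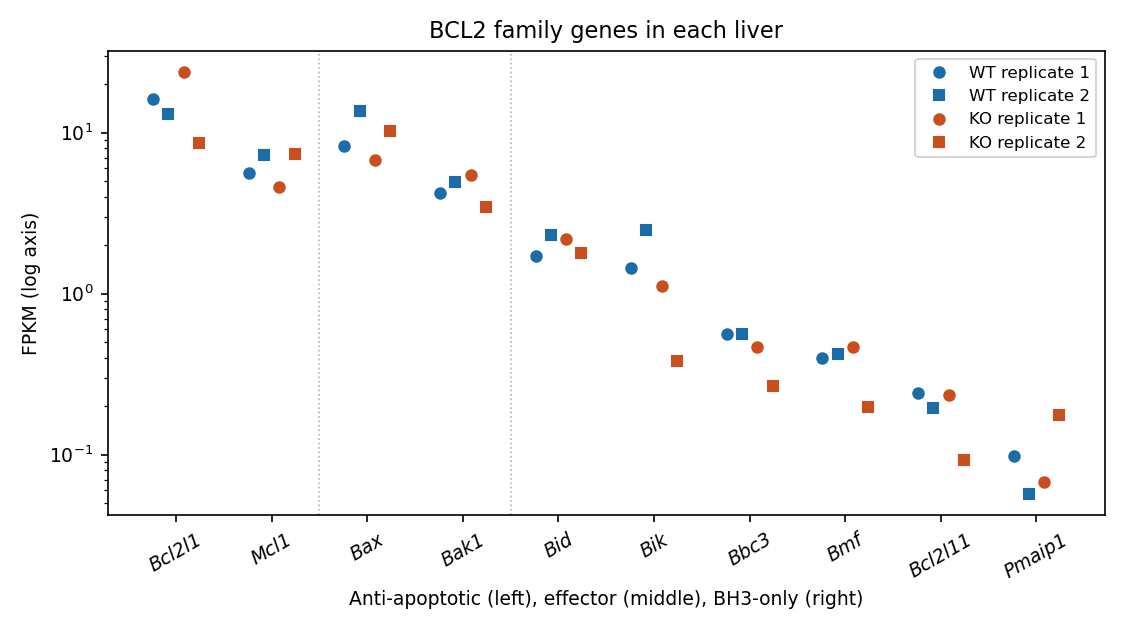
FPKM of the 10 BCL2 family genes in each liver on a log axis, with WT livers in blue, KO livers in orange, circles for replicate 1 and squares for replicate 2. Both KO livers sit below both WT livers for Bik and Bbc3, and the groups overlap for the other 8 genes.

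Among the anti-apoptotic genes, Bcl2l1 (its transcript at chr2:152780672-152830666, minus strand, GRCm38, as for all positions below), which encodes Bcl-xL, had the highest mean of all 10 in both groups, although Bax was above it in replicate 2 of each group. It measured 16.1 and 13.1 FPKM in the WT livers against 23.8 and 8.68 FPKM in the KO livers. The highest and the lowest liver were both KO livers, 2.75-fold apart, and the WT livers lay between them. The log2 difference was -0.01 (SE 0.43, 95% interval -0.94 to 0.91, limma, adjusted p = 1). Mcl1 (chr3:95658788-95663176, plus strand), a short-lived protein that binds Bcl2l11 and Bak1, measured 5.58 and 7.28 FPKM in the WT livers against 4.62 and 7.36 FPKM in the KO livers. The KO livers again took both ends of the range. Its log2 difference was -0.12 (SE 0.36, 95% interval -0.90 to 0.65, limma, adjusted p = 1). The 2 genes moved in opposite directions between the KO livers, so that the ratio of Bcl2l1 to Mcl1 was 5.16 in KO replicate 1 and 1.18 in KO replicate 2, against 2.89 and 1.80 in the WT livers.

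Bax (chr7:45461697-45466898, minus strand), an effector that moves from the cytosol to mitochondria, measured 8.25 and 13.5 FPKM in the WT livers against 6.79 and 10.3 FPKM in the KO livers. The groups overlapped, since KO replicate 2 was above WT replicate 1. The log2 difference was -0.34 (SE 0.37, 95% interval -1.13 to 0.46, limma, adjusted p = 1). Exons of Bax overlap the gene Gm45808 on the same strand, and reads of the 2 cannot be told apart there. Bak1 (chr17:27019810-27029009, minus strand), the effector that resides in the outer mitochondrial membrane, measured 4.22 and 4.94 FPKM in the WT livers against 5.44 and 3.47 FPKM in the KO livers. The WT livers lay between the KO livers. Its log2 difference was -0.07 (SE 0.35, 95% interval -0.83 to 0.69, limma, adjusted p = 1). Exons of Bak1 overlap Ggnbp1 on the opposite strand.

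Bik (chr15:83526862-83544634, plus strand), a BH3-only protein of the endoplasmic reticulum, measured 1.44 and 2.50 FPKM in the WT livers, from an estimated 110 and 188 reads. It measured 1.11 and 0.380 FPKM in the KO livers, from an estimated 82 and 26 reads. Both KO livers were below both WT livers, as the choice of the gene fixed. The mean was 1.97 ± 0.745 FPKM in WT livers and 0.746 ± 0.518 FPKM in KO livers (SD, n = 2 each), or 37.9% of the WT mean. The gap between WT replicate 1 and KO replicate 1 was small beside the spread within groups, since the WT livers differed 1.73-fold and the KO livers 2.93-fold. By counting error alone, the 95% interval of KO replicate 1 was 0.886 to 1.38 FPKM and that of WT replicate 1 was 1.19 to 1.74 FPKM, and these overlapped. The interval of KO replicate 2 was 0.248 to 0.557 FPKM and lay below those of the other 3 livers. The log2 difference on log2(FPKM + 0.1) was -1.39, and it was -0.72 without KO replicate 2 and -2.06 without KO replicate 1.

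Bid (chr6:120891930-120916836, minus strand), which links death receptors to mitochondria after cleavage by caspase-8, measured 1.71 and 2.32 FPKM in the WT livers against 2.18 and 1.78 FPKM in the KO livers. Both KO livers lay between the WT livers. The log2 difference was -0.02 (SE 0.35, 95% interval -0.76 to 0.73, limma, adjusted p = 1). Exons of Bid overlap Bcl2l13 on the opposite strand.

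Bbc3 (chr7:16309616-16318205, plus strand), which encodes the p53 target Puma, was the only other member whose groups did not overlap. It measured 0.565 and 0.566 FPKM in the WT livers against 0.465 and 0.266 FPKM in the KO livers, from an estimated 83, 82, 66 and 35 reads. Both KO livers were below both WT livers. Groups without overlap were found for 20.7% of all genes tested, 10% with the KO livers below and 10.7% with them above, so 1 of 8 members was near or under the background. The WT livers were nearly equal and the KO livers differed 1.75-fold. By counting error alone, the 95% interval of KO replicate 1 was 0.360 to 0.592 FPKM. It overlapped those of the WT livers, 0.450 to 0.701 and 0.450 to 0.702 FPKM. The interval of KO replicate 2, 0.185 to 0.370 FPKM, lay below those of the WT livers. The log2 difference of -0.55 did not pass the test (SE 0.37, 95% interval -1.33 to 0.23, limma, adjusted p = 1, unadjusted p = 0.155).

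Bmf (chr2:118528757-118549687, minus strand), a BH3-only protein that is released from the cytoskeleton, measured 0.399 and 0.423 FPKM in the WT livers against 0.466 and 0.199 FPKM in the KO livers. Bcl2l11 (chr2:128126039-128162547, plus strand), which encodes Bim and is a FoxO target, measured 0.240 and 0.194 FPKM in the WT livers against 0.236 and 0.0930 FPKM in the KO livers. In both genes KO replicate 1 was at the level of the WT livers and KO replicate 2 stood below all others, 2.34-fold under KO replicate 1 for Bmf and 2.54-fold for Bcl2l11. The log2 difference was -0.31 for both genes (SE 0.39 each, 95% intervals -1.15 to 0.52 for Bmf and -1.15 to 0.53 for Bcl2l11, limma, adjusted p = 1).

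The sequences upstream of Bbc3, Bcl2l11 and Bmf are shown because these 3 BH3-only genes, like Bik, were lowest in KO replicate 2. RefSeq start sites of GRCm38.p6 were found for 8 of the 10 genes, all but Bik and Pmaip1. Capitals mark the GC box, GGGCGG or CCGCCC on either strand, which was found in the 250 bases upstream of 32.7% of the 32817 start sites listed. Each sequence runs 5′ to 3′ on the strand of its gene and stops before the first annotated exon.
Bbc3, chr7:16309333-16309582, plus strand: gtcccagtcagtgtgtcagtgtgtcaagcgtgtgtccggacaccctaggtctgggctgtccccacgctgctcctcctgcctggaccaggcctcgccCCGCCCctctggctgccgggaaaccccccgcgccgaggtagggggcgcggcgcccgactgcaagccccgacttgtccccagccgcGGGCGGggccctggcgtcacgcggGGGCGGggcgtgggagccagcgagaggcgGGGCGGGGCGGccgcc
Bcl2l11, chr2:128125788-128126037, plus strand: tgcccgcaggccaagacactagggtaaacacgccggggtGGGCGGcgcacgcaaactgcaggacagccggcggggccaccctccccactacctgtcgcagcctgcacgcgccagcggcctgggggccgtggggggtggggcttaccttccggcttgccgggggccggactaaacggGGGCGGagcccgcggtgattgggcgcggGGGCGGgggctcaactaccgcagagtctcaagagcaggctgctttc
Bmf, chr2:118549688-118549936, minus strand: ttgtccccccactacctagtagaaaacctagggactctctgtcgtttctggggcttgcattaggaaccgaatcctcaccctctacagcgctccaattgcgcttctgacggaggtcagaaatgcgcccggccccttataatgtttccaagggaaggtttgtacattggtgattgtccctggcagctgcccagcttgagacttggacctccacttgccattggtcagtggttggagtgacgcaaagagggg
The Bbc3 stretch held 5 GC boxes, a pair of which share a base, the Bcl2l11 stretch held 3 and the Bmf stretch held none. The Bmf window instead held 3 CCAAT boxes (CCAAT or ATTGG), a motif found in 33.8% of all windows, and the Bcl2l11 stretch held 1. G and C made up 76.4% of the Bbc3 window, 72% of the Bcl2l11 window and 54% of the Bmf window. RefSeq lists other start sites for these genes, and the ones shown lie nearest to the transcripts in the table. In the windows shown neither motif was found in all 3, while another Bbc3 window, chr7:16310181-16310430, held 1 CCAAT box.

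KO replicate 2 was the lowest of the 4 livers for 5 of the 8 tested members other than Bik, namely Bak1, Bcl2l1, Bcl2l11, Bbc3 and Bmf. This was true of 12.9% of all genes tested, and the count was made after the values were seen. The median distance between the KO livers over the 8 tested members other than Bik was 0.65 on log2(FPKM + 0.1), against 0.40 over all genes tested. Between the WT livers it was 0.26, against 0.31. The spread of the members was thus larger between the KO livers than between the WT livers, and the genotype differences above are set against that spread.

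Pmaip1 (chr18:66458533-66465560, plus strand), which encodes Noxa, an inhibitor of Mcl1, measured 0.0981 and 0.0568 FPKM in the WT livers against 0.0677 and 0.177 FPKM in the KO livers. These values rested on an estimated 22, 12, 14 and 35 reads, and the groups overlapped. The mean of 0.0999 FPKM was just under the filter, so Pmaip1 was not tested, while Bcl2l11 with a mean of 0.191 FPKM was the tested member nearest to it.

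**Figure D2:**
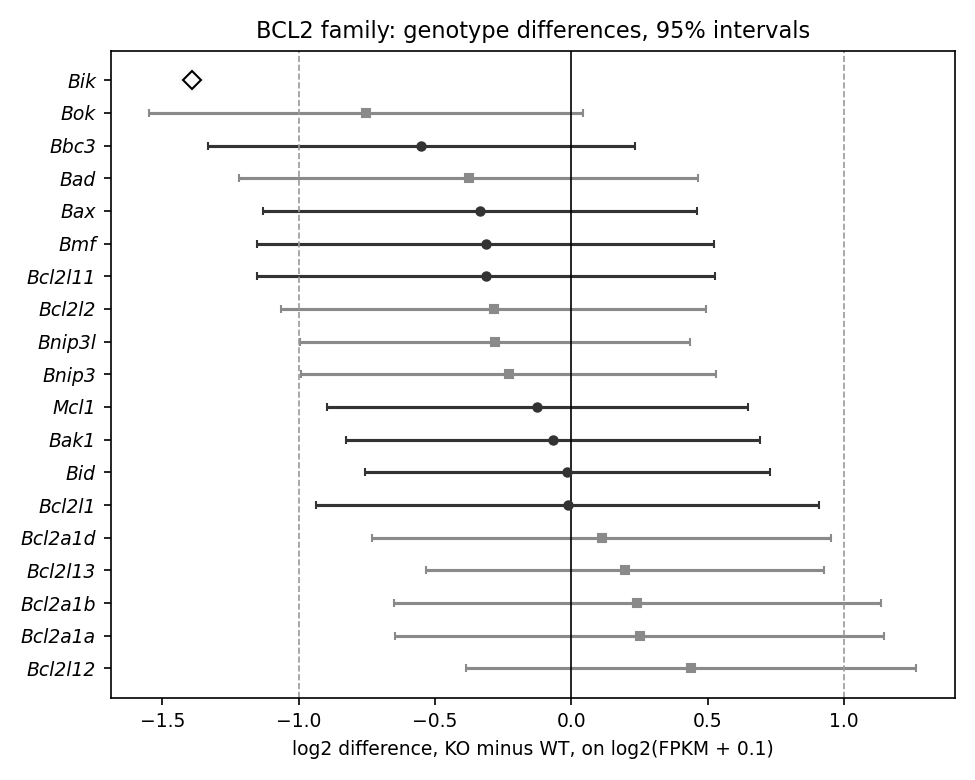
log2 difference between KO and WT livers on log2(FPKM + 0.1) for the tested BCL2 family genes, with the 8 tested members other than Bik as black circles and the others as grey squares. Bars are 95% intervals from limma, the dashed lines mark 2-fold changes, and the open diamond is Bik at -1.39, given without an interval because it was chosen for this difference. All intervals drawn include 0.

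Summed by role, the 6 BH3-only genes gave 4.45 and 6.06 FPKM in the WT livers against 4.53 and 2.89 FPKM in the KO livers. The groups overlapped, and KO replicate 2 was the lowest. Without Bik the sums were 3.01 and 3.56 FPKM in the WT livers against 3.42 and 2.51 FPKM in the KO livers. Bik made up 32.4% and 41.2% of the BH3-only sum in the WT livers against 24.6% and 13.1% in the KO livers, a share that its choice lowers. The 2 anti-apoptotic genes gave 21.7 and 20.4 FPKM in the WT livers against 28.5 and 16.1 FPKM in the KO livers, and the 2 effectors gave 12.5 and 18.5 against 12.2 and 13.8 FPKM. The groups overlapped for both sums. The ratio of effectors to anti-apoptotic genes was 0.575 and 0.906 in the WT livers against 0.430 and 0.858 in the KO livers, which also overlapped. The ratio of BH3-only to anti-apoptotic genes was 0.205 and 0.297 in the WT livers against 0.159 and 0.180 in the KO livers, without overlap, and it overlapped once Bik was left out, at 0.139 and 0.175 against 0.120 and 0.157. The BH3-only share of the sum of all 10 genes was 11.5% and 13.5% in the WT livers against 10.02% and 8.85% in the KO livers. Without Bik it was 8.11% and 8.39% against 7.75% and 7.78%, again without overlap. With further BCL2 family genes of these roles added, Bad among them, the groups overlapped. The share, Bik included, was then 15.5% and 19.1% in the WT livers against 12.7% and 15.7% in the KO livers. The ratio of BH3-only to anti-apoptotic genes was then 0.286 and 0.445 against 0.206 and 0.334. These ratios and shares were not tested.

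**Figure D3:**
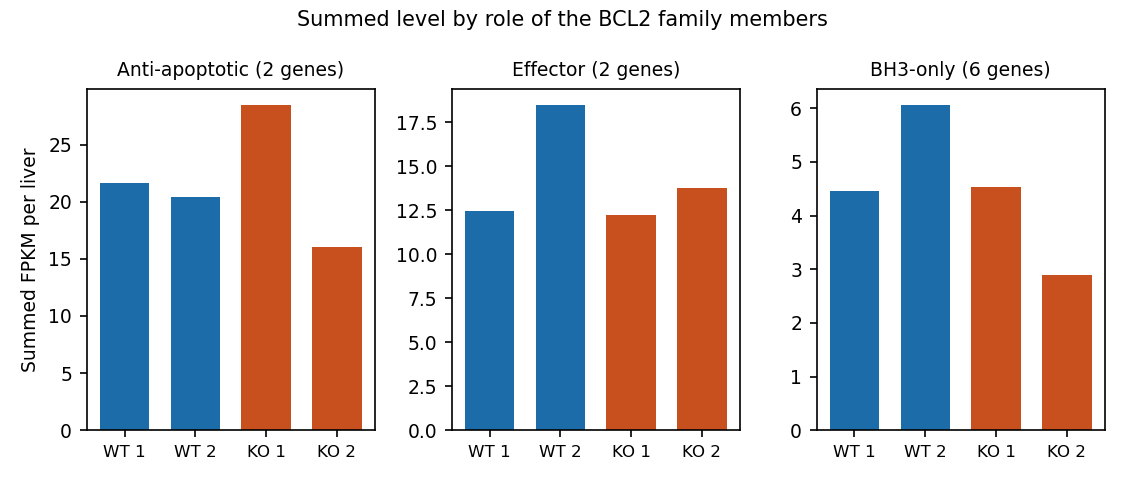
Summed FPKM of the anti-apoptotic, effector and BH3-only genes among the 10 members, 1 bar per liver, WT in blue and KO in orange. The BH3-only sum is lowest in KO replicate 2 at 2.89 FPKM, and the anti-apoptotic sum is highest in KO replicate 1 at 28.5 FPKM.

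In the WT livers the levels ran from Bcl2l1 at 14.6 ± 2.11 FPKM through Bax at 10.9 ± 3.74, Mcl1 at 6.43 ± 1.20 and Bak1 at 4.58 ± 0.509 to Bid at 2.02 ± 0.433 and Bik at 1.97 ± 0.745 FPKM (SD, n = 2). Below them stood Bbc3 at 0.566 ± 0.000274, Bmf at 0.411 ± 0.0170, Bcl2l11 at 0.217 ± 0.0330 and Pmaip1 at 0.0774 ± 0.0292 FPKM. Neighbours in this order did not overlap except Bcl2l1 with Bax and Bid with Bik. The order of the means was the same in the KO livers, where only the steps from Bak1 to Bid and from Bid to Bik were free of overlap.

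The genes whose pattern over the 4 livers lay closest to that of Bik were Ankrd9, Gm17364 and Slco1a4, at Euclidean distances of 0.286, 0.340 and 0.357 between centred log2(FPKM + 0.1) values, among 12345 genes. Slco1a4, which encodes an organic anion transporter, measured 5.59 and 8.16 FPKM in the WT livers against 5.36 and 1.74 FPKM in the KO livers. Of the members, Bbc3 was nearest to Bik with rank 177 at a distance of 1.11, followed by Bmf with rank 318 and Bcl2l11 with rank 570. Bak1 had rank 1114, Bcl2l1 rank 1816, the BH3-only gene Bid rank 1982, Bax rank 3738 and Mcl1 rank 7228. The BH3-only genes Bbc3, Bmf and Bcl2l11 thus came first, while Bid came after the effector Bak1 and the anti-apoptotic Bcl2l1. These likenesses rest on the same 4 livers for every gene and are a description.

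Of 15 further BCL2 family genes, 10 were tested and none passed the threshold, 5 being higher and 5 lower in the KO livers, with a median log2 difference of -0.06. Bok, an effector related to Bax and Bak1, came nearest. It measured 0.926 and 1.26 FPKM in the WT livers against 0.453 and 0.788 FPKM in the KO livers. Both KO livers were below both WT livers, with a log2 difference of -0.75 (SE 0.37, 95% interval -1.55 to 0.04, limma, adjusted p = 1, unadjusted p = 0.061). Without KO replicate 2 the difference was -1.10. The mitophagy receptors Bnip3 and Bnip3l were the most abundant of the list in these livers. Bnip3 measured 81.0 and 118 FPKM in the WT livers against 105 and 66.6 FPKM in the KO livers, with a log2 difference of -0.23, and Bnip3l had a log2 difference of -0.28. The BH3-only gene Bad had a log2 difference of -0.38 and the anti-apoptotic gene Bcl2l2, whose exons overlap Gm20521 on the same strand, one of -0.29. Bcl2l13, which overlaps Bid, had a log2 difference of 0.20, and Bcl2l12, named by a transcript that is not in GENCODE M21, one of 0.44. The near-identical paralogs Bcl2a1a, Bcl2a1b and Bcl2a1d are anti-apoptotic genes of leukocytes, and their reads are uncertain between copies. Their log2 differences were 0.25, 0.24 and 0.11. These genes were lowest in WT replicate 2, from an estimated 5, 8 and 18 reads. The summed FPKM of 10 neutrophil markers was also lowest in that liver, at 4.48 against 8.26 to 16.6 in the others. S100a9 made up most of that sum, at 2.99 FPKM in WT replicate 2, while Csf3r and Cxcr2 were lowest in other livers. The part of the neutrophil markers in these values was not tested. Bcl2, Bcl2l10, Bcl2l14, Bcl2l15 and Hrk were under the filter.

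**Figure D4:**
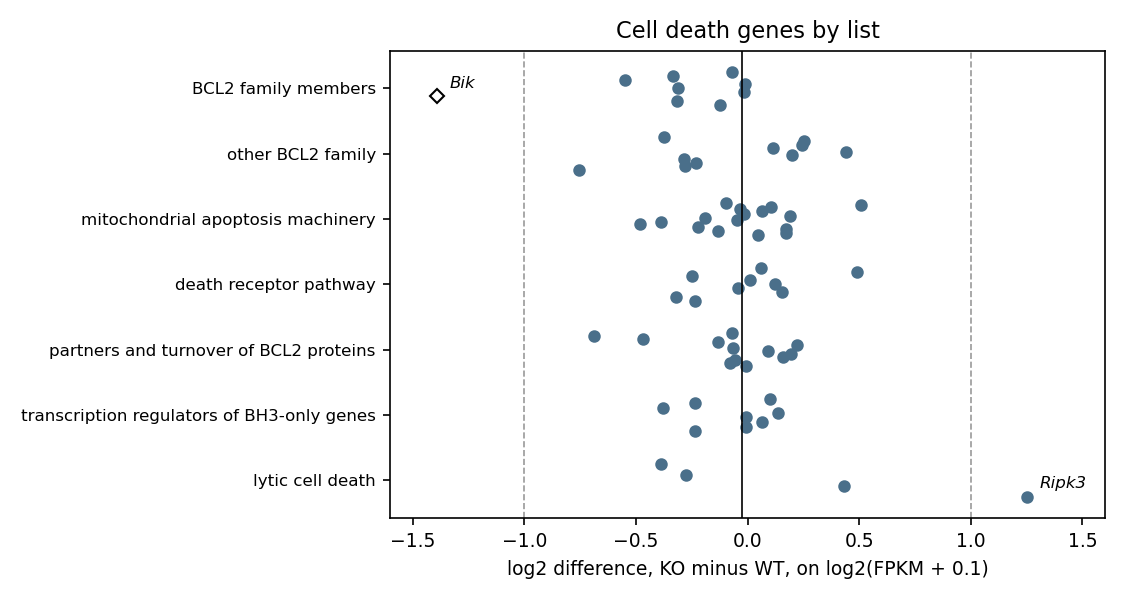
log2 difference between KO and WT livers on log2(FPKM + 0.1) for each tested gene of 7 cell death lists, the open diamond being Bik. The solid line is the median of all genes tested at -0.02 and the dashed lines mark 2-fold changes. Ripk3 at 1.25 is the only gene beyond the 2-fold line besides Bik.

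Over 69 genes of the wider cell death pathway in 6 lists, 59 were tested and 1, Ripk3, passed the threshold, against 0.98% of all genes. The mitochondrial machinery downstream of Bax and Bak1, such as the apoptosome component Apaf1 and the caspases, had a median log2 difference of -0.02 over 16 genes tested. Apaf1 was the highest at 0.51 and Dffb, a DNase of apoptosis, the lowest at -0.48, and Aifm1 was the most abundant. The death receptor pathway, which feeds Bid, had a median of 0.01 over 9 genes, from Tradd at -0.32 to Cflar, the caspase-8 inhibitor, at 0.49, with Tnfrsf1a the most abundant. Partners and turnover factors of BCL2 proteins had a median of -0.06 over 12 genes, from Dynll1, a dynein light chain that holds Bcl2l11, at -0.69 to Huwe1, a ubiquitin ligase of Mcl1, at 0.22, with Tmbim6 the most abundant. Transcription regulators of BH3-only genes had a median of -0.01 over 8 genes, from E2f1 at -0.38 to Foxo1 at 0.14, with Cdkn1a, the p53 target, the most abundant. None of these 4 lists held a gene past the threshold with all livers in the fit. The log2 difference of Cflar was 1.15 without KO replicate 1, and that of Dynll1 was -1.36 without KO replicate 2. Ddit3, of the transcription regulators, measured 0.701 and 1.25 FPKM in the WT livers against 0.290 and 1.90 FPKM in the KO livers. Its KO livers, 6.56-fold apart, took both ends of the range.

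Ripk3, the kinase of necroptosis (a lytic form of cell death that runs apart from Bax and Bak1), measured 0.233 and 0.427 FPKM in the WT livers against 0.938 and 0.856 FPKM in the KO livers, from an estimated 37, 67, 144 and 122 reads. Both KO livers were above both WT livers, which held for 10.7% of all genes tested. The log2 difference was 1.25 (SE 0.37, 95% interval 0.46 to 2.03, limma, adjusted p = 1, unadjusted p = 0.00422). With a pseudocount of 1 it was 0.52, and without WT replicate 1 it was 0.92, both under the 2-fold change of the threshold. Mlkl, the membrane-rupturing target of Ripk3, measured 1.67 and 1.49 FPKM in the WT livers against 1.52 and 3.07 FPKM in the KO livers. These overlapped, and KO replicate 2 alone was high. Gsdmd, the pore former of pyroptosis, was the lowest of the list at -0.39, and Gsdme had a log2 difference of -0.28.

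Macrophage markers differed in the same direction as Ripk3. Of 11 listed markers, 3 (Cd68, Cd5l and Vsig4) passed the threshold as higher in the KO livers, against 0.437% of all genes. The other 8 did not pass and had log2 differences above 0, and the groups overlapped for 2 of them, Adgre1 and Timd4. The summed FPKM of the list was 48.8 and 49.9 in the WT livers against 63.2 and 139 in the KO livers. C1qa was the most abundant, and none of the 11 was at 0. The study's own flow cytometry and staining found macrophages little changed by the loss of Brg1, a measure of cells and not of RNA. KO replicate 2 had the highest macrophage sum. It was also lowest for Bik, Bmf, Bbc3, Bcl2l11, Bak1 and Bcl2l1, and highest for Mcl1 and Pmaip1. Ripk3 was higher in KO replicate 1, at 0.938 FPKM, than in KO replicate 2, at 0.856 FPKM. The part of these markers in the values of Ripk3 and of the BCL2 family genes was not tested.

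**Figure D5:**
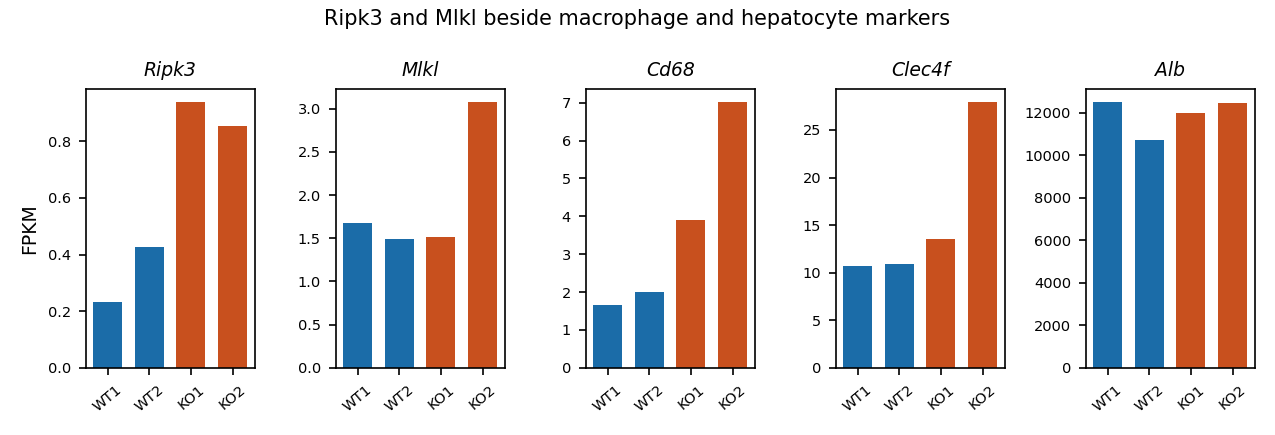
FPKM of Ripk3 and Mlkl beside the macrophage markers Cd68 and Clec4f and the hepatocyte marker Alb, 1 bar per liver, WT in blue and KO in orange, each panel with its own axis from 0. Ripk3 is above 0.8 FPKM in both KO livers, Mlkl is high in KO replicate 2 only, and Alb is at a similar level in all 4 livers.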

How the data were processed

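RNA from whole livers of 2 WT and 2 KO mice was analysed from 1 deposited table of FPKM per gene and liver. According to the study's methods the authors used Trimmomatic for trimming, HISAT2 for mapping to GRCm38 and Cufflinks for FPKM, while the submitters' processing notes name HISAT2 2.0.4 and StringTie 2.1.4. The methods describe stranded TruSeq libraries on an Illumina HiSeq instrument and the labels a BGIseq protocol. Whether the counting used strand is not given in the sources used here, and reads of overlapping genes may be shared.

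Gene names, positions and lengths came from GENCODE M21, which held 98.6% of the transcripts. 27 symbols turned into dates were restored. Reads were estimated as FPKM times length times the library total, and totals came from the steps of low values in transcripts of at least 2000 bases, 88.4% to 89.5% of which lay within 0.1 of a whole read. Counting intervals are exact Poisson 95% intervals, and cover counting error only.

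Genes averaging 0.1 FPKM or more were fitted in R 4.3.3 by limma 3.58.1, using a trended eBayes, on log2(FPKM + 0.1), a scale that understates the change of low genes, with Benjamini-Hochberg adjustment over all genes. Groups are the genotypes in the labels, and p-values measure only the spread between these livers. The procedure was tested on simulated data. Alternatives changed the pseudocount (1 or 0.01), the filter (none, or a mean of 1 FPKM), the scaling (median ratio or quantile) and the eBayes trend, added the replicate number as a block, or left out each liver in turn.

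The genes named were all 10 members, the further BCL2 family genes past the filter, from each other list the genes past the threshold, the largest and smallest difference and the most abundant gene, the 3 genes nearest to Bik, and Smarca4. Ddit3, Mlkl, Gsdme and the members that were lowest in KO replicate 2 were named after their values were seen. So were the cell type markers named or drawn beyond the most abundant of each list. The members and lists were chosen with earlier results of these data known.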

Additional observations from a re-analysis of the deposited data

How the results depend on the processing

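The count of members other than Bik past the threshold was 0 under every alternative that kept all 4 livers. Bik was chosen for its fall, and its groups did not overlap. Leaving out a liver or changing the pseudocount or the filter therefore could not reverse its direction. Its log2 difference lay between -2.06 and -0.72 with 1 liver left out and between -1.53 and -0.77 under the other settings. The count over all genes, 121, became 18 with a pseudocount of 1, 80 with no filter, 68 where the filter was a mean of 1 FPKM and 78 to 552 with 1 liver left out. The counts with 1 liver left out use p-values from fits in which a group holds a single liver with no spread of its own. They are therefore not a range for the result, and no conclusion is drawn from them. With all 4 livers in the fit, genes with an adjusted p under 0.05 in limma went from 0 to 2 with the higher filter, and the adjusted p of Smarca4 was then 0.841. The replicate block gave 108 genes over all and again 0 members, and the labels share only a number between groups (correlation of deviations 0.03). The 1 call among the other pathway genes became 0 with a pseudocount of 1, and with the higher filter, where Ripk3 was not tested. Smarca4 was at -0.85 with a pseudocount of 1 and between -1.56 and -1.44 with 1 liver left out. Differences near 0 changed sign under rescaling or quantile normalization. With 1 liver left out larger differences changed sign too, such as those of Cflar at 0.49 and Bad at -0.38. Bid became 0.018 with median-ratio rescaling and 0.0016 with quantile normalization, and Bcl2l1 became 0.0199 with median-ratio rescaling. With 1 liver left out the log2 differences ranged from -0.23 to 0.20 for Bid, -0.69 to 0.019 for Bax, -0.38 to 0.25 for Bak1, -0.74 to 0.71 for Bcl2l1, -0.46 to 0.21 for Mcl1, -0.71 to 0.088 for Bcl2l11, -0.77 to 0.15 for Bmf, -0.61 to 0.035 for Bcl2l2, -0.32 to 0.82 for Bcl2a1a, -0.33 to 0.82 for Bcl2a1b, -0.37 to 0.59 for Bcl2a1d, -0.82 to 0.065 for Bad, -0.052 to 0.93 for Bcl2l12, -0.56 to 0.10 for Bnip3, -0.21 to 0.014 for Aifm1, -0.17 to 1.15 for Cflar, -0.11 to 0.29 for Tmbim6, -0.40 to 0.60 for Cdkn1a and -0.37 to 0.64 for Foxo1. The cause of these changes was not tested. Pmaip1 rested on 12 to 35 estimated reads.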
